A study of Homo sapiens with 4 samples.

Results

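CBFB and the 3 RUNX genes, RUNX1, RUNX2 and RUNX3, encode the subunits of core-binding factor, and all 4 were found by symbol among the 25343 rows of each of the 2 deposited tables. The genes were chosen because each line's knockdown library had less CBFB than its control and that of LNCaP less RUNX1, so the knockdown ratios of the 4 genes are given as a description, with no test. RNA sequencing of 2 prostate carcinoma lines, C4-2B ENZR and LNCaP, gave 4 libraries with 1 in each group. C4-2B ENZR is resistant to enzalutamide, an antiandrogen, and was grown with 20 µM of the drug, whereas LNCaP was grown without it. In each line the control cells stably carried a non-targeting hairpin and the knockdown cells one directed at the coding sequence of MAOA, the gene of monoamine oxidase A, and all 4 cultures had been infected with lentivirus and selected with antibiotic. The labels leave unsaid if a single MAOA hairpin served both lines, if the selected cells were pools or clones, or if more than 1 culture was made, and the names of the 2 knockdown libraries differ. The library names also carry a lane-like suffix that differs between the lines, so line, drug and library batch cannot be told apart where the lines differ.

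RUNX proteins bind DNA through the runt domain and switch genes on or off, depending on the cofactors they recruit. CBFB does not touch DNA. It pairs with any of the RUNX proteins, raises their affinity for DNA and protects them from degradation. RUNX1 is known for the formation of blood stem cells, RUNX2 for bone formation and RUNX3 for T cell and neuronal differentiation. In prostate carcinoma RUNX2 is known for its link to bone metastasis.

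The RUNX factors recognise the letters TGTGGT or TGCGGT on either strand, and RUNX2 is known to bind its own promoter, so these letters were searched in the start regions of the RUNX genes. RefSeq windows on GRCh38.p14, each from 250 bases before to 50 bases after a start, were found for RUNX1 (1 window), RUNX2 (2) and RUNX3 (2). The window of RUNX1 and the second windows of RUNX2 and RUNX3 held neither word, whereas the first window of RUNX2 held 5 matches and that of RUNX3 held 2. Only that 1 window was searched for RUNX1, so any other start of the gene was left unsearched. Of all 35116 windows in the table, 19.6% held at least 1 match and 2.32% held 2 or more. The 2 windows with matches also had less G and C, 42.7% for RUNX2 and 66.3% for RUNX3, against 72.0% to 76.0% in the other 3. The stretches of 30 bases that hold the matches, none of which overlap each other, are shown because the other 3 windows held no match. They are written 5′ to 3′ on the strand of the gene with the matched letters in capitals.
RUNX2, chr6:45328127-45328156, plus strand: aggaaaggccttACCACAagccttttgtga
RUNX2, chr6:45328231-45328260, plus strand: gtgaggtcacaaACCACAtgattctgcctc
RUNX2, chr6:45328342-45328371, plus strand: aacaACCACAgaACCACAagTGCGGTgcaa
RUNX3, chr1:24965120-24965149, minus strand: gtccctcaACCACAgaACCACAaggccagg
The matches of RUNX2 began 191 and 87 bases before the start and 17 bases into the transcript, and those of RUNX3 began 131 bases before it. The first windows of RUNX2 and RUNX3 had a run of 18 identical bases in common, which lies in the last RUNX2 stretch and in the RUNX3 stretch. The values below are sums per gene, so they do not show from which start a transcript came.

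The C4-2B ENZR control held 23479051 recovered reads and its knockdown 23679869, and the LNCaP libraries held 52550452 and 52012696. Levels are read counts divided by the library size after TMM scaling (trimmed mean of M-values), written CPM, and the 2 tables were normalized separately, so levels of the 2 lines stand side by side without a comparison. All 10 markers of luminal prostate cells reached 1 CPM in each library. KLK3, the gene of prostate-specific antigen, had 3.72 CPM in the C4-2B ENZR control and 6.34 CPM in its knockdown. In the LNCaP table KLK3 stood at 2391 and 2716 CPM. Of 5 blood markers none reached 1 CPM in any library, and their summed level was 0.0881 to 0.246 CPM. Of 5 basal prostate markers 2 reached 1 CPM in each C4-2B ENZR library and 3 in each LNCaP library. Of 5 neuroendocrine markers 2 did so in each library, and of 6 fibroblast and endothelial markers 3 or 4 did. MAOA itself went from 327 to 219 CPM in C4-2B ENZR, 66.8% of control, and from 445 to 140 CPM in LNCaP, 31.3% of control.

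CBFB was the abundant gene of the group. It was at 65.7 CPM in the C4-2B ENZR control (1624 reads) and at 35.4 CPM in the knockdown (870 reads), and at 53.9 CPM in the LNCaP control (3058 reads) and 28.8 CPM in the knockdown (1406 reads). Both knockdown libraries were thus below their control, at 53.9% of it in C4-2B ENZR and 53.4% in LNCaP. Written as the log2 of the CPM ratio without a pseudocount, the difference was -0.89 (95% counting interval -1.01 to -0.77) and -0.90 (-0.997 to -0.813). These exact conditional (Clopper-Pearson) intervals cover counting error only, and with 1 library a group there is no replicate check. In bulk RNA, less transcript in every cell and fewer cells with the transcript cannot be told apart. MAOA was left at a smaller share of its control in LNCaP than in C4-2B ENZR, while the CBFB shares lay side by side as deposited. Relative to the median ratio of genes averaging 10 CPM or more, CBFB was at -0.89 in C4-2B ENZR and -1.04 in LNCaP. Whether the hairpin acted on CBFB was not tested, since the sources used here do not hold its sequence. The longest run of identical bases between the 1581-nt coding region of MAOA and any coding transcript of CBFB in GENCODE 29 was 10 nt, and 98.5% of 11529 expressed genes had a run at least that long. The run was sought on the same strand and without the hairpin sequence. It therefore cannot decide if the hairpin acted on CBFB.

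RUNX1 was lower in both knockdown libraries too, by unequal amounts. In LNCaP it went from 10.9 CPM (618 reads) to 3.52 CPM (172 reads), 32.3% of control. The log2 ratio without a pseudocount was -1.63 (counting interval -1.88 to -1.38). In C4-2B ENZR it went from 3.36 CPM (83 reads) to 2.40 CPM (59 reads), 71.5% of control. That log2 ratio of -0.48 had a counting interval of -0.99 to 0.01, so at this depth the C4-2B ENZR difference was not separable from equality as deposited. With both libraries rescaled to the same sum the interval was -1.01 to -0.0058, which just leaves equality out. After centring on the median ratio it was -0.98 to 0.02 and with recomputed TMM -0.99 to 0.01, both including equality. The RUNX1 intronic transcript RUNX1-IT1 had 0.485 CPM in the C4-2B ENZR control against 0.610 CPM in the knockdown, and 0.317 against 0.430 CPM for LNCaP. It rested on 12 to 21 reads a library and its intervals included equality in both lines.

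RUNX2 differed from the other measured members in direction. In C4-2B ENZR it was at 1.37 CPM in the control (34 reads) and 2.89 CPM in the knockdown (71 reads), a log2 ratio without a pseudocount of 1.07 (counting interval 0.46 to 1.70). In LNCaP it was at 8.09 CPM (459 reads) and 9.86 CPM (482 reads), a log2 ratio of 0.29 (0.10 to 0.47). As deposited, the knockdown library was the higher one in each line, but the LNCaP difference depended on the scaling. Among LNCaP genes averaging 10 CPM or more the median log2 ratio was 0.13, and relative to that median the RUNX2 ratio was 0.15 with an interval of -0.04 to 0.34. SUPT3H, which overlaps the RUNX2 locus, had 5.26 CPM in the C4-2B ENZR control against 4.84 CPM in the knockdown, and 3.96 against 4.75 CPM for LNCaP. The sources used here do not give the strand setting of the counting, so reads of the overlap may not be separable.

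RUNX3 was close to the floor in every library. It had 0 reads in the C4-2B ENZR control, 2 in its knockdown, 4 in the LNCaP control and 3 in its knockdown. The 3 reads that a count of 0 allows equal 0.121 CPM in that control library, so a level under it could have gone undetected there. No fold is given for RUNX3, and a lack of transcript is not shown by these counts. None of the 50-nt words of the longest coding transcripts of the 4 genes occurs in a transcript of another gene in GENCODE 29, so reads of the 50 nt length used here would not be split between these genes by sequence identity.

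**Figure D1:**
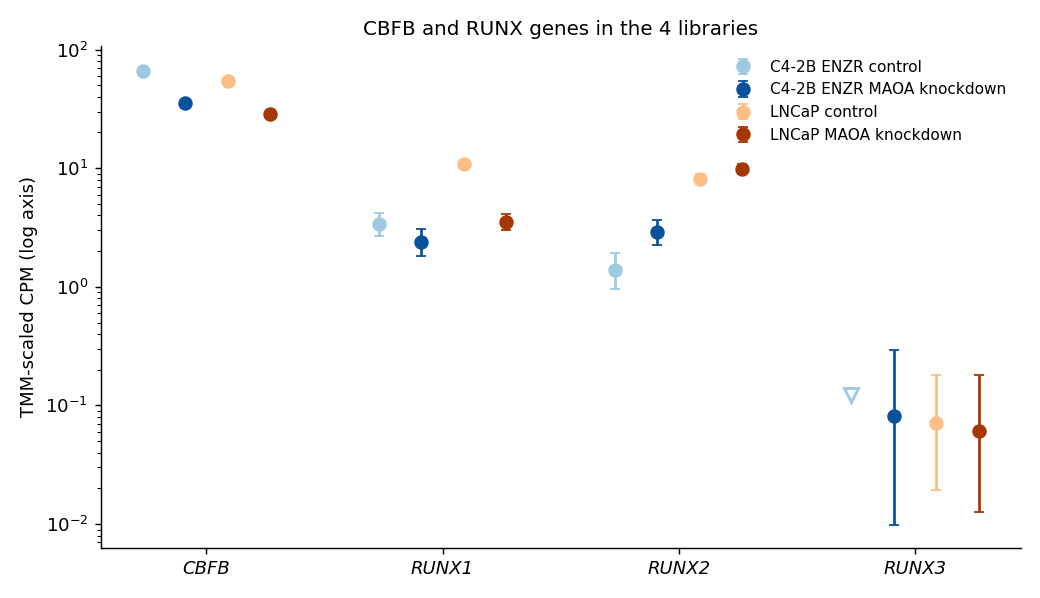
Level of the 4 genes in TMM-scaled CPM (log axis) in each library, 1 point per library, with exact Poisson 95% counting intervals. The open triangle marks 0 reads and stands at the 0.121 CPM that 3 reads would give. CBFB is lower in both knockdown libraries and RUNX1 is lowest relative to its control in LNCaP. RUNX2 is higher in both knockdown libraries as deposited, which in LNCaP depends on the scaling, and RUNX3 lies near the floor in all 4.

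**Figure D2:**
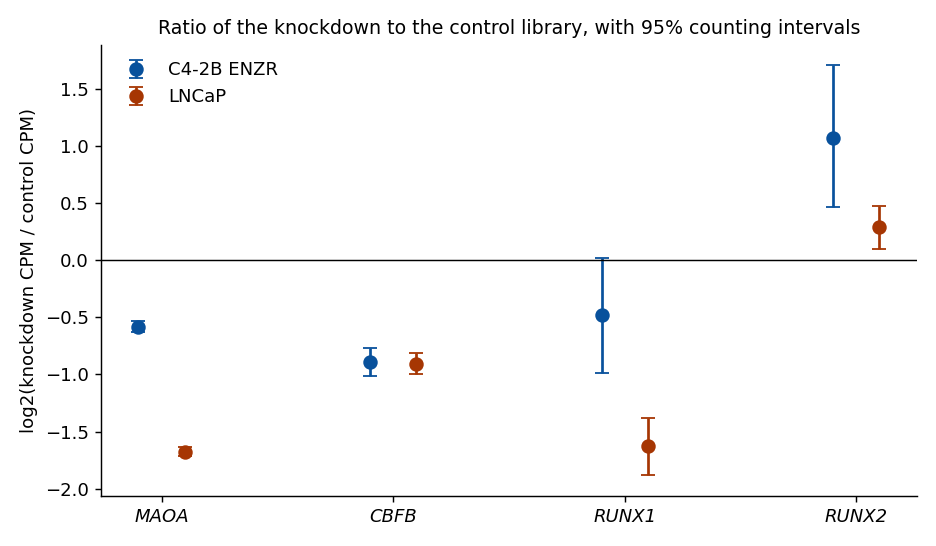
Log2 ratio of knockdown to control CPM without a pseudocount for MAOA and the 3 measured members, 1 point per line, with 95% counting intervals. CBFB lies at -0.89 and -0.90, RUNX1 reaches -1.63 in LNCaP while its C4-2B ENZR interval crosses 0, and RUNX2 lies above 0 in both lines as deposited.

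Set against all genes, the 3 measured members stood at different places. For this, 1 CPM was added to both levels before the log2 ratio was taken, a scale on which low genes differ by less than they do without it, and genes averaging 1 CPM or more in the line were kept. In C4-2B ENZR none of the 3 members was 2-fold lower, against 0.152% of 13806 genes, and none was 2-fold higher, against 0.29%. In LNCaP RUNX1 was 2-fold lower, against 0.254% of 13783 genes, and no member was 2-fold higher, against 0.58%. The members were picked on these ratios, so nothing is read from the counts. They also shift with the settings: RUNX2 in C4-2B ENZR passed 2-fold with a pseudocount of 0.1 CPM (1.02), CBFB in LNCaP after centring on the median ratio (-1.02), and RUNX1 in LNCaP no longer did with a pseudocount of 5 CPM (-0.90). On this scale CBFB was at -0.87 in C4-2B ENZR, rank 32 from the lowest, and at -0.88 in LNCaP, rank 56. RUNX1 was at -1.40 in LNCaP, rank 13 from the lowest, but at -0.36 in C4-2B ENZR, rank 576. RUNX2 was at 0.71 in C4-2B ENZR, rank 124 from the highest, and at 0.26 in LNCaP, rank 3984. Genes of low level scatter more, so each was also set beside genes whose mean CPM in that line was within 2-fold of its own. Of these, 0.0752% lay at or below CBFB in C4-2B ENZR and 0.136% in LNCaP. For RUNX1 the shares were 8.34% in C4-2B ENZR and 0.0725% in LNCaP, and 2.03% and 26.4% lay at or above RUNX2. CBFB in both lines and RUNX1 in LNCaP were chosen because these ratios were low. Their ranks and shares are therefore low by choice, and are a description and no test.

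The mix of RUNX transcripts within a library needs no scaling between libraries. The C4-2B ENZR control held 2.44 RUNX1 reads per RUNX2 read and the knockdown 0.831. The LNCaP control held 1.35 and the knockdown 0.357. RUNX1 thus had more reads than RUNX2 in both controls and fewer in both knockdown libraries. In the C4-2B ENZR knockdown this order rested on 59 against 71 reads. The counting intervals of the 2 levels overlapped there, 1.83 to 3.09 CPM for RUNX1 and 2.25 to 3.64 CPM for RUNX2. The ratio of RUNX1 to RUNX2 reads in the knockdown was 34.0% of that in the control in C4-2B ENZR (exact conditional 95% interval 19.4% to 59.6%) and 26.5% in LNCaP (21.3% to 32.9%). RUNX1 was a reason for choosing the genes, so this shift is a description, and the intervals cover counting error only.

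Levels of different genes were compared per kb of the longest coding transcript in GENCODE 29, which need not be the isoform expressed here. On that scale RUNX1 made up 65.7% of the summed RUNX level in the C4-2B ENZR control and 38.6% in the knockdown, and 51.0% and 21.7% in the LNCaP libraries. RUNX2 took 34.3% in the C4-2B ENZR control against 59.2% in the knockdown, and 48.4% against 77.7% for LNCaP. The LNCaP control was close to an even split, with 1.05 RUNX1 per RUNX2 after length, so a different isoform length could turn the order there. The summed RUNX level differed in opposite directions, from 0.703 in the control to 0.855 CPM per kb in the knockdown of C4-2B ENZR, and from 2.93 to 2.23 in LNCaP. CBFB, the shared partner, exceeded the summed RUNX level in all 4 libraries. It was at 20.9 CPM per kb in the C4-2B ENZR control and 11.3 in the knockdown, and its level was 29.8-fold and 13.2-fold that of the RUNX sum. In LNCaP CBFB was at 17.2 and 9.18 CPM per kb, or 5.86-fold and 4.12-fold the RUNX sum. These are RNA levels, and protein was not measured.

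**Figure D3:**
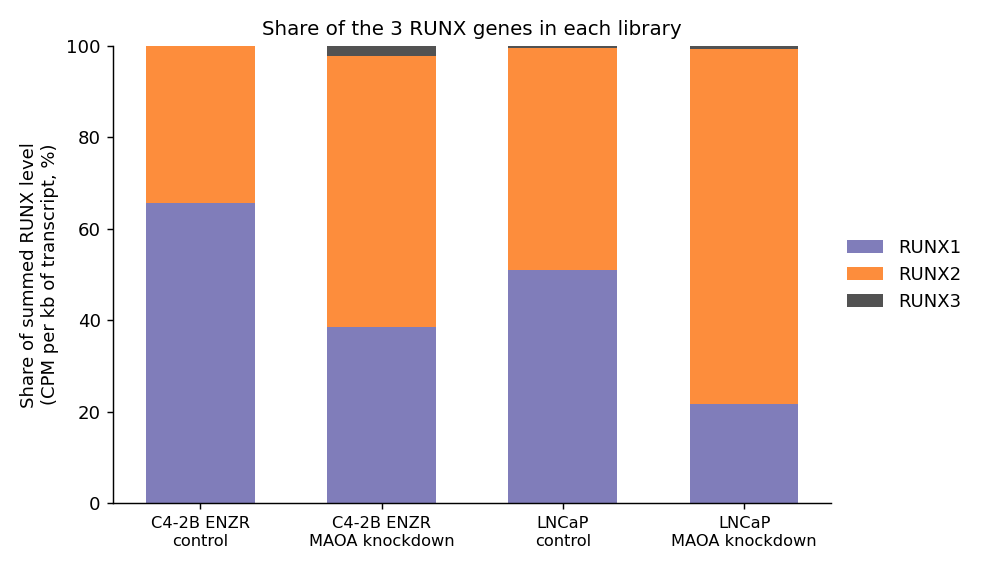
Share of RUNX1, RUNX2 and RUNX3 in the summed RUNX level (CPM per kb of longest coding transcript, in percent), 1 bar per library. RUNX1 takes 65.7% and 51.0% in the controls and 38.6% and 21.7% in the knockdown libraries, and the RUNX3 share of 2.19% in the C4-2B ENZR knockdown rests on 2 reads.

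The genes next to each member gave a view of the surrounding chromosome. For each member the 3 nearest genes on each side that averaged 1 CPM or more in each line were taken by RefSeq gene order. Around CBFB, on chromosome 16, these were CES3, CES2 and FAM96B on one side and C16orf70, TRADD and FBXL8 on the other. Their log2 ratios with a pseudocount ran from 0.01 to 0.43 in C4-2B ENZR and from 0.01 to 0.56 in LNCaP, so none was lower in a knockdown library as deposited. The lowest LNCaP value, 0.01 for TRADD, lay below the median log2 ratio of 0.13 in that line. Around RUNX1, on chromosome 21, the ratios of RCAN1, SMIM11, MRPS6, SETD4, CBR1 and CBR3-AS1 ran from -0.07 to 0.27 and from -0.21 to 0.66. RUNX1 in LNCaP thus lay well below all 6. Around RUNX2, on chromosome 6, CDC5L, AARS2, NFKBIE, ENPP4, ENPP5 and CYP39A1 ran from -0.22 to 0.51 and from -0.10 to 0.62, so RUNX2 lay above all 6 in C4-2B ENZR and within their range in LNCaP. Around RUNX3, on chromosome 1, CLIC4, SRRM1, NCMAP, SYF2, RSRP1 and RHD ran from -0.18 to 0.45 and from -0.14 to 0.75.

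Neighbours, and genes on lists of cofactors and reported targets, are not members and were tested over both lines. The lists were chosen with earlier results of these data known, so their adjusted p-values describe these genes and are no independent check. The test was limma on the within-line ratios of the 13110 genes that averaged 1 CPM or more in each line, with Benjamini-Hochberg adjustment at 0.05, and "rose" and "fell" are kept for genes that passed it. With 1 residual degree of freedom it leans on a spread pooled over genes, so the SEs hardly measure the spread between the lines, and the lines are the only replicates. In all, 4.27% of genes rose and 1.5% fell in limma, 1.32% and 0.969% in edgeR, and 0.992% and 0.679% in DESeq2, both run on recovered reads. None of the 6 neighbours of CBFB passed, and 1 of 6 passed and rose around each RUNX gene, MRPS6 (limma adjusted p = 0.0386), ENPP4 (0.00244) and CLIC4 (0.000168).

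The genes with the pattern most like a member were those with the smallest Euclidean distance between the pairs of within-line log2 ratios, 2 values a gene, out of 10710 genes averaging 5 CPM or more in each line. For CBFB they were ANLN, which encodes the cytokinesis protein anillin (-0.83 for C4-2B ENZR, -0.78 for LNCaP, distance 0.107), RSC1A1 (-0.97 and -0.74), DDI2, a protease gene (-0.93 and -0.73), FAM110B (-0.78 and -1.03) and PCNA, the gene of the replication clamp (-0.76 and -1.03). RSC1A1 and DDI2 lie at a common locus, so their reads may not be separable. For RUNX1 they were PPP1R10, a phosphatase regulator gene (-0.14 and -1.20, distance 0.294), MAOA (-0.58 and -1.67), ZNF618 (-0.57 and -1.10), PDSS1, an enzyme gene of coenzyme Q synthesis (-0.42 and -1.03), and PRMT6, an arginine methyltransferase gene (-0.23 and -1.03). The neighbours of RUNX1 in this plane were more distant than those of CBFB, and each point is a single ratio per line. RUNX1 itself averaged 2.88 CPM in C4-2B ENZR, under the 5 CPM asked of these genes. Its counting interval there, -0.99 to 0.01 without a pseudocount, was wider than the distance of 0.294 to PPP1R10. Which genes are most like RUNX1 is therefore not settled by these values.

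**Figure D4:**
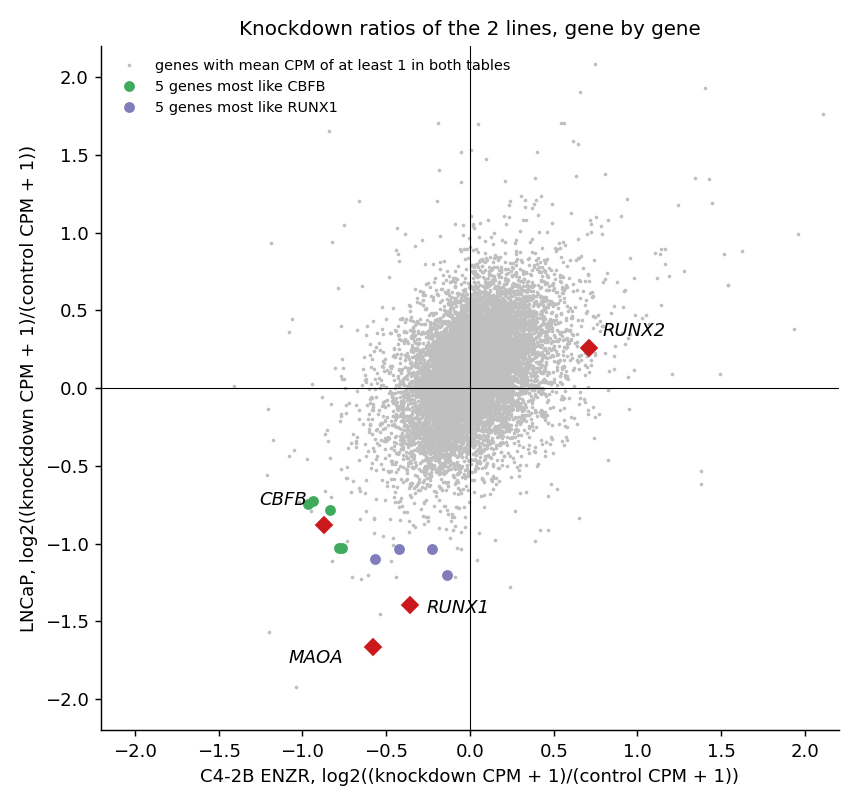
Log2 ratio with a pseudocount of 1 CPM in C4-2B ENZR (x axis) and in LNCaP (y axis) for 13110 genes (grey; 4 lie outside the axes), with CBFB, RUNX1, RUNX2 and MAOA as red diamonds and the 5 genes most like CBFB (green) and RUNX1 (purple; MAOA is itself one of these and is drawn as a diamond). CBFB lies at -0.87 and -0.88, RUNX1 at -0.36 and -1.40 and RUNX2 at 0.71 and 0.26.

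Genes that act with core-binding factor were described in 3 lists, whose counts stand beside the 4.27% of all genes that rose and the 1.5% that fell. Among DNA-binding partners and coactivators 17 of 23 genes were tested, 1 rose and none fell in limma, with a median mean log2 ratio of 0.11 beside 0.06 over all genes. CEBPB, a transcription factor gene of the CCAAT-binding family, rose from 44.1 to 67.8 CPM in C4-2B ENZR and from 67.1 to 92.1 CPM in LNCaP (mean log2 0.53, SE 0.12, limma adjusted p = 0.00158). The call was lost in DESeq2 (adjusted p = 0.0619) and in limma with no filter on low values (adjusted p = 0.132). The lowest mean ratio was that of the acetyltransferase gene KAT6B (-0.10, limma adjusted p = 0.747). The blood factor gene SPI1, the bone factor gene DLX5, ETS1, FOS, TWIST1 and WWTR1 were below the level needed for the test, and are named for that reason alone.

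Among corepressors 14 of 17 genes were tested, none rose and 1 fell. TLE1, a Groucho-type corepressor that binds the carboxyl end of RUNX proteins, fell from 24.3 to 12.9 CPM in C4-2B ENZR and from 23.8 to 14.7 CPM in LNCaP (mean log2 -0.76, SE 0.14, limma adjusted p = 3.18e-05). Its relatives TLE2 (mean log2 0.22) and TLE3 (0.06, the most abundant of the list at 273 to 374 CPM) did not pass. The list had a median of 0.08. RUNX1T1, the fusion partner of RUNX1 in leukaemia, named here after its values were seen, had 0 reads in both C4-2B ENZR libraries, and 2 and 3 reads in those of LNCaP.

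All 23 modifying and turnover enzymes were tested, 1 rose and 2 fell, and the median was 0.09. PIM1, a kinase gene whose product phosphorylates RUNX proteins, rose from 8.01 to 10.9 CPM in C4-2B ENZR and from 17.6 to 39.2 CPM in LNCaP (mean log2 0.76, limma adjusted p = 6.21e-05). PRMT6, which methylates histones at RUNX1-bound genes, fell in the mean of the lines (-0.63, limma adjusted p = 9.45e-05) with unlike ratios of -0.23 and -1.03. That call was not held in edgeR (adjusted p = 0.0555) or DESeq2 (adjusted p = 0.601). With no filter on low values limma did not call PRMT6 either (adjusted p = 0.222). CDC20, an activator of the anaphase-promoting complex, fell (-0.46, limma adjusted p = 0.00967). The most abundant member, the cyclin gene CCND1, did not pass, with 385 CPM in the C4-2B ENZR control against 366 CPM in the knockdown, and 419 against 574 CPM for LNCaP (limma adjusted p = 0.521).

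Many reported targets of the RUNX factors were too low to be tested. Of 18 skeletal and invasion targets only 4 were high enough, with a median of 0.32. The 14 others included the classical bone targets, named here after their values were seen. IBSP, the bone sialoprotein gene, had 0 reads in all 4 libraries, and SPP1, the osteopontin gene, had 1 read in each C4-2B ENZR library and 11 and 10 reads in those of LNCaP. The collagenase gene MMP13 had 0.687 CPM in the C4-2B ENZR control against 0.773 CPM in the knockdown, and 1.37 against 3.54 CPM for LNCaP, and was kept from the test by its C4-2B ENZR level. Of the 4 tested, 2 rose and 1 fell. VEGFA, the vascular growth factor gene, rose (mean log2 1.00, limma adjusted p = 3.46e-11), as did SOX9 (0.42, limma adjusted p = 0.0362, not held in edgeR at 0.0972). The SOX9 call was also lost in DESeq2 (adjusted p = 0.308), and in limma after rescaling to the same sum and with no filter on low values. BIRC5, the survivin gene, fell from 175 to 84.4 CPM and from 104 to 26.6 CPM (mean log2 -1.48, limma adjusted p = 6.71e-24).

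Of 21 blood targets 9 were tested and 1 fell. MYL9, a myosin light chain gene that RUNX1 is known to activate in megakaryocytes, fell from 5.01 to 3.05 CPM in C4-2B ENZR and from 62.0 to 32.0 CPM in LNCaP (mean log2 -0.75, limma adjusted p = 9.95e-05). ZBTB7B had the highest mean ratio of the list (0.19) and did not pass (limma adjusted p = 0.447). The list's median was 0.02. Of 20 epithelial targets 12 were tested, 3 rose and 1 fell, with a median of 0.05, beside 4.27% and 1.5% of all genes. CDKN1A, the p21 gene and a brake on the cell cycle, rose from 92.7 to 143 CPM and from 147 to 443 CPM (mean log2 1.10, limma adjusted p = 3.41e-13). That call was lost in DESeq2 (adjusted p = 0.224) and in limma with no filter (adjusted p = 0.111). CDKN1B, which encodes p27, passed with a mean log2 ratio of 0.42 (limma adjusted p = 0.0198), made of 0.09 for C4-2B ENZR, with a counting interval that included 0, and 0.76 for LNCaP. NOTCH1 passed with 0.40 (limma adjusted p = 0.033), made likewise of 0.09, with 0 inside the interval, and 0.70. JAG1, which encodes a NOTCH ligand, fell in the mean (-0.49, limma adjusted p = 0.0163), with -0.78 for C4-2B ENZR and -0.21 for LNCaP. These last 3 did not pass in edgeR (adjusted p = 0.126, 0.13 and 0.0544) or in DESeq2 (adjusted p = 0.271, 0.295 and 0.126). CTNNB1, the beta-catenin gene and the most abundant of the list, did not pass, with 628 CPM in the C4-2B ENZR control against 613 CPM in the knockdown, and 315 against 276 CPM for LNCaP.

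Over the 6 lists together, 79 of 121 genes were tested, 7 rose and 6 fell in limma, and 4 rose and 4 fell in edgeR. Over all genes 4.27% rose and 1.5% fell in limma, and 1.32% and 0.969% in edgeR. Many of the genes that passed also answer to other regulators, and whether their differences follow from CBFB or RUNX1 was not tested.

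**Figure D5:**
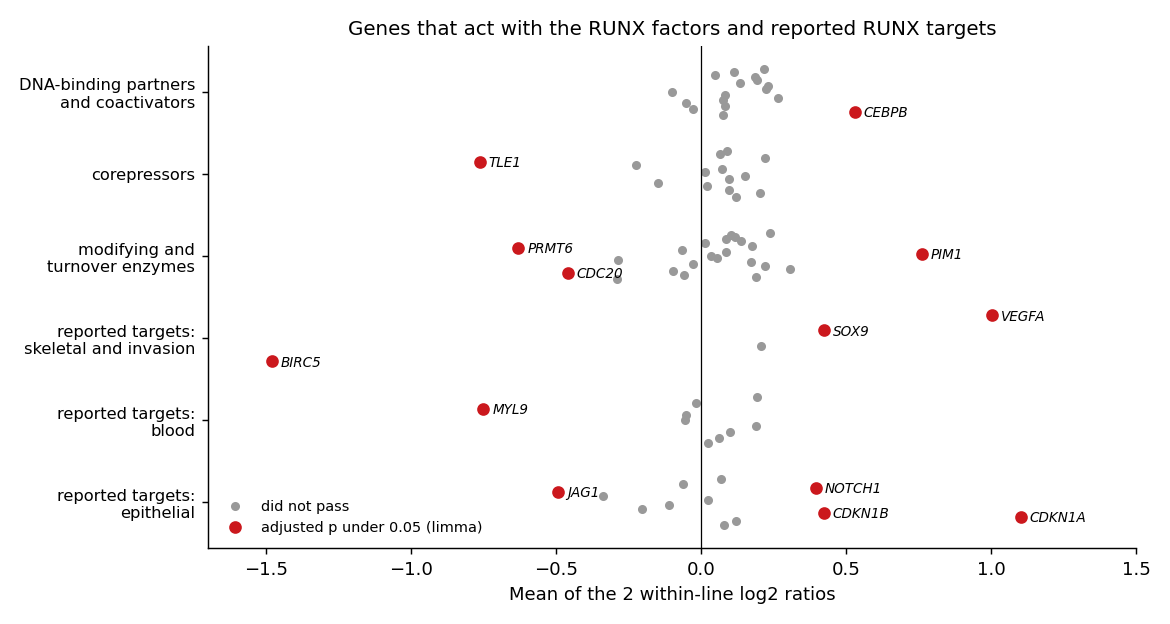
Mean of the 2 within-line log2 ratios (x axis) of the tested genes of the 6 lists (rows), 1 point per gene, with those at a limma adjusted p under 0.05 in red and named. Grey points gather near 0, BIRC5 (-1.48), TLE1 (-0.76) and MYL9 (-0.75) lie lowest, and CDKN1A (1.10) and VEGFA (1.00) lie highest.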

How the data were processed

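The 4 libraries of total RNA, single reads of 50 nt, were 1 per group. Per the submitters' processing notes, the build was hg19 and the tools named were RSEM 1.2.15, Bowtie2 2.1.0 and edgeR. The authors deposited 1 table per line, as TMM-scaled CPM for C4-2B ENZR and, because a column sums to 1064501, read as a signal on the same scale for LNCaP. Dividing by the step of 1 read gave whole numbers within 0.01 for 100% of values, so read counts were recovered. Rows sharing a date-like symbol (4) were left out of tests.

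Ratios used a pseudocount of 1 CPM unless stated. limma 3.58.1 (R 4.3.3, trended prior, line within each ratio) was the test for genes that are not members. edgeR 4.0.16 on recovered reads with recomputed TMM called 300 of 13110 genes, limma 757 and DESeq2 1.42.0 219. The steps were tested on simulated data. Named genes are the members, MAOA, neighbours, nearest patterns, and of each list those passing plus the highest, lowest and most abundant. A gene that this rule names is not reported here. Members and lists were chosen with earlier results of these data known. The lists' 121 genes all matched a symbol, 2 of them through older names.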

Additional observations from a re-analysis of the deposited data

Results flagged for a closer look

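In 4 genes named above the knockdown was lower in C4-2B ENZR and higher in LNCaP, with counting intervals on opposite sides of equality; the difference between the lines was not tested, as 4 libraries leave no degrees of freedom for it. The log2 ratios were -0.0747 and 0.45 for CCND1, -0.385 and 0.18 for KAT6B, -0.14 and 0.27 for TLE3 and -0.0751 and 0.46 for ZBTB7B, where the LNCaP values include the shift of 0.13 of the median gene. None of the members was among them.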

How the results depend on the processing

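The log2 ratios of CBFB, RUNX1 and RUNX2 kept their sign in both lines under the 5 alternatives run (pseudocounts of 0.1 and 5 CPM, centring on the median ratio, rescaling to the same sum, recomputed TMM). A pseudocount cannot change a sign, so only the changes of scale could have done so. In C4-2B ENZR these shifts were small, with a median ratio of -0.0071 for the centring. CBFB in LNCaP moved to -1.02 after centring, -1.08 after rescaling and -0.998 with recomputed TMM, and RUNX1 in LNCaP to -0.90 with a pseudocount of 5. In C4-2B ENZR, RUNX2 went from 0.71 to 1.02 with a pseudocount of 0.1 and 0.31 with 5, and RUNX1 from -0.36 to -0.47 and -0.18. The counts of members past 2-fold therefore depend on these settings. RUNX2 in LNCaP lay between 0.08 and 0.28. Its counting interval there, without a pseudocount, included equality after centring (-0.04 to 0.34), after rescaling (-0.10 to 0.27) and with recomputed TMM (-0.02 to 0.36). Genes 2-fold lower and higher in C4-2B ENZR numbered 45 and 90 with a pseudocount of 0.1, 6 and 18 with 5, and 9 and 26 at a mean CPM of at least 5, against 21 and 40. In LNCaP, against 35 and 80, they numbered 76 and 163 with a pseudocount of 0.1, 6 and 40 with 5, 58 and 48 after centring and 67 and 41 after rescaling, with 19 lower at a mean CPM of at least 5.

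Over both lines 560 genes rose and 197 fell. The counts were 309 and 585 after rescaling, 14 and 6 with no filter on low values, 173 and 127 in edgeR and 130 and 89 in DESeq2, and 578 and 541 after centring, so the share of rises depends on the scaling. DESeq2 gave no adjusted p for 1017 genes. List genes that rose numbered 7, but 4 after rescaling, 1 with no filter, 4 in edgeR and 2 in DESeq2, and of 6 that fell 1 was left with no filter. BIRC5 and VEGFA passed in all 8 alternatives, CDC20, PIM1 and TLE1 in 7 of 8 and MYL9 in 6 of 7, each lost with no filter. Each fit over both lines paired the libraries by line, as within-line ratios in limma and as a block in edgeR and DESeq2, and the labels give no replicate numbers. Few reads limit RUNX1 and RUNX2 in C4-2B ENZR and RUNX3 in all 4 libraries.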
